A study of Mus musculus with 17 samples.

Results

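The betaine, homocysteine and methionine cycle enzymes were followed as 10 genes in kidney: Bhmt, Bhmt2, Chdh, Dmgdh, Sardh, Mat2a, Mat2b, Ahcy, Cbs and Cth. Each was found by matching its symbol to 1 mouse Ensembl identifier of the deposited count table, so the set is 10 of 55487 genes. They were chosen by their role in the pathway with the fold changes between db/db and db/m kidneys already known, of which that of Bhmt was the highest in the table. Their differences between the groups are therefore given as a description and not as tests. Kidneys came from 9 db/db males, which carry 2 copies of the leptin receptor mutation Leprdb on the BKS strain and become obese and diabetic. They were set against kidneys of 8 db/m males, which carry 1 copy of Leprdb on the same strain and stay lean. All mice were 16 weeks old, and each library holds 1 animal. The leptin receptor mutation is in all cells of the body. Samples were grouped by title, which matches the library name and the number of animals in the design. Each of the 17 samples carries the other group's genotype in a separate label, and should that label hold, all directions given here would be reversed.

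These enzymes pass methyl groups and sulfur between choline, methionine and cysteine. Choline is oxidised to betaine, which gives a methyl group to homocysteine and so remakes methionine. The remainder of betaine, dimethylglycine, loses its other methyl groups in mitochondria and becomes sarcosine and then glycine. Methionine is activated to S-adenosylmethionine (SAM), the methyl donor of most methyltransferases. What is left after methyl transfer is split to homocysteine, which is either methylated again or committed to cysteine by transsulfuration. Besides liver, the kidney tubule is a main site of betaine and homocysteine handling, and the renal medulla also holds betaine as an osmolyte.

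RNA was read at the 3′ end of polyadenylated transcripts, so long and short transcripts give 1 tag alike. Libraries held 3256427 to 7627747 gene counts, and levels are given as CPM, counts relative to the library total after TMM scaling. The marker genes of proximal tubule, thick ascending limb and collecting duct that define kidney were present in each library. For S3, the final stretch of the proximal tubule, the summed CPM of 9 markers was 2124 to 3529 in db/db kidneys and 3667 to 4449 in db/m kidneys, with no overlap (exact permutation p = 8.23e-05, two-sided). By edgeR (quasi-likelihood, Benjamini-Hochberg) 5 of the 9 were lower, such as Cyp7b1 (log2 fold change -3.78, adjusted p = 4.82e-08), while Slc5a10 was higher (1.10, adjusted p = 8.60e-06) and Aqp1 was at 0.07 (adjusted p = 0.841). The sum of 10 distal tubule and collecting duct markers was 1538 to 2354 in db/db and 909 to 1314 in db/m (exact permutation p = 4.11e-05, the smallest it can give). The S1 and S2 markers of the proximal tubule summed to 9777 to 17787 CPM in db/db and 8870 to 12719 CPM in db/m (exact permutation p = 0.280). In such bulk samples, a marker sum cannot tell apart cell number, RNA per cell and changes of single marker genes. Which of them applied was not tested. On the first principal component of log2 CPM, db/db replicate 8 lay at 79.2 and db/m replicate 8 at -44.3. Liver-enriched genes such as Mat1a were highest in db/db replicate 9. Results that rest on these libraries are given with and without them where both were calculated.

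Bhmt2, Dmgdh and Bhmt lie side by side on mouse chromosome 13, and their promoters are shown because the neighbours had unlike values. Sequences are from RefSeq (GRCm38.p6), run 5′ to 3′ on the gene's strand, and cover 250 bases before to 50 after the annotated start. They were found for 9 of the 10 members, Cth being the exception. Bhmt2 (chr13:93674253-93674552, minus strand) and Dmgdh (chr13:93674186-93674485, plus strand) point away from each other from starts 134 bases apart. Their windows share 233 bases, in capitals on both lines. Bhmt starts 36544 bases from Bhmt2 (chr13:93637709-93638008, minus strand), and capitals there mark CCAAT on either strand. Mat2a (chr6:72439507-72439806, minus strand) is shown as the other member whose groups did not overlap, with CCAAT and TATAAA in capitals.
Bhmt: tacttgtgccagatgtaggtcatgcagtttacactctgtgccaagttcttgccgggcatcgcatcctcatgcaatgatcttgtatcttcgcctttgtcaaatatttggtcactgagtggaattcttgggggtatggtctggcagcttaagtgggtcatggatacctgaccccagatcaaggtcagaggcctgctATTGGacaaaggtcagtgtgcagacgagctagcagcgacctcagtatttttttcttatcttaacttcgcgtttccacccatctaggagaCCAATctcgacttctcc
Bhmt2: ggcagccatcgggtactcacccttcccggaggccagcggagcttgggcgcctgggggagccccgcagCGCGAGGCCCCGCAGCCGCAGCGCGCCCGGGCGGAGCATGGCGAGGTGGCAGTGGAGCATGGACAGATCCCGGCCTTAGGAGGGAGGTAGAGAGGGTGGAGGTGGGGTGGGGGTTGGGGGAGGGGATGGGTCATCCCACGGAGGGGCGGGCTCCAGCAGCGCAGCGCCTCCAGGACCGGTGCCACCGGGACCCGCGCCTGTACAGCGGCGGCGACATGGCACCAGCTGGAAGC
Dmgdh: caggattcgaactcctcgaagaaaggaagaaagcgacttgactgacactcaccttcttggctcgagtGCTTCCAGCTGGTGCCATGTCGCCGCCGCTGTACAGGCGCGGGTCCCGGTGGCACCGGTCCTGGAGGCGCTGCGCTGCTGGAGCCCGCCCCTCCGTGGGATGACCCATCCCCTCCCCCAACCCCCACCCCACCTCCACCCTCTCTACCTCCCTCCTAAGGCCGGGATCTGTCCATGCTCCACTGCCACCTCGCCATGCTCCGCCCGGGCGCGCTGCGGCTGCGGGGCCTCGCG
Mat2a: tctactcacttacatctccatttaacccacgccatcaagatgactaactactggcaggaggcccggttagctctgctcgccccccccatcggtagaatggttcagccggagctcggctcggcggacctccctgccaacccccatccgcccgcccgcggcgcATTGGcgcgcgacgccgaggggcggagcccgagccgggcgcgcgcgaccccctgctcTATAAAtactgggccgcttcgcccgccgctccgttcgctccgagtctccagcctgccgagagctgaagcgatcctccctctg
The Bhmt2 and Dmgdh windows hold 73.7% and 68% G or C with 26 and 25 CG pairs, and the Bhmt window 48% with 8, against medians of 52.7% and 7 over 32851 mouse promoters. The TATA motif TATAAA, the CCAAT box, the E-box CACGTG, the STAT motif TTCNNNGAA, the DR1 element of HNF4 and PPAR, the glucocorticoid receptor element and the HNF1 site were searched on both strands. None was in the Bhmt2 or Dmgdh window, and the last 3 were in no member's window. CCAAT was at -56 and 34 from the start of Bhmt, and 37.4% of all promoters hold it. TATAAA was at -32 in Mat2a, and 13.6% hold it. These matches describe the letters only.

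Betaine-homocysteine methyltransferase, Bhmt, makes methionine from homocysteine with a methyl group of betaine, and is known as a liver and kidney enzyme. It had 17 to 101 counts in each of the 9 db/db kidneys, 380 in all, and 0 to 3 counts in each of the 8 db/m kidneys, 8 in all. Its level was 4.69 CPM at the lowest, 8.44 at the median and 22.6 at the highest in db/db, against 0 to 0.816 CPM in db/m with 4 libraries at 0. Every db/db kidney was above every db/m kidney. The mean was 9.36 ± 5.25 CPM in db/db and 0.243 ± 0.332 CPM in db/m (SD, n = 9 and 8), a log2 fold change of 5.28 (SE 0.51, 95% interval 4.22 to 6.34). As db/m rests on single counts, where 3 counts correspond to 0.427 to 0.819 CPM, this fold is imprecise. It was between 5.01 and 5.76 when any 1 library was left out.

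The db/db kidneys were uneven. Replicate 1 alone had 22.6 CPM of Bhmt, and the other 8 had 4.69 to 9.79 CPM, with a mean of 7.71 ± 1.86 (SD). That same kidney had the highest summed level of S1 and S2 markers (17787 CPM) and the lowest of S3 markers (2124 CPM). Across the 9 db/db kidneys, log2 CPM of Bhmt had r = 0.865 with the S1 and S2 sum, and r = 0.533 over the 8 others. Both are descriptions over libraries that share their scaling, and their part in the Bhmt values was not tested.

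Bhmt is abundant in liver, so liver genes were counted beside it. In db/db replicate 9, the liver form of SAM synthetase Mat1a had 58 counts, the fatty acid binding protein Fabp1 41, the urea cycle enzymes Cps1 and Arg1 7 and 9, and albumin Alb 261. In the 8 other db/db kidneys Mat1a had 0 to 4 counts and Fabp1 0 to 8, and in db/m kidneys they had 0 to 3 and 0 to 1. Bhmt in replicate 9 was at 6.59 CPM, below the db/db median, and without that kidney the db/db mean was 9.71 ± 5.50 CPM (SD, n = 8). In db/db replicate 1, where Bhmt was highest, Mat1a, Cps1 and Arg1 were at 0 counts, while Fabp1 had 6 and Alb 73.

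Some plasma protein genes made by liver were higher on average in db/db also without replicate 9. Over the 8 other db/db kidneys Alb averaged 14.5 CPM, Apoa2 7.32 CPM and Ttr 3.06 CPM, against 8.11, 3.34 and 1.64 CPM over the db/m kidneys. With all libraries, Alb had a log2 fold change of 1.02 (SE 0.31, adjusted p = 0.0510 by the same edgeR test). In the same test Apoa2 was called higher (1.34, SE 0.37, adjusted p = 0.0281). Alb, Apoa2 and Ttr were thus higher on average in db/db, as Bhmt was, and their part in the Bhmt values was not tested. Apoa1, which did not pass the filter on low counts, averaged 2.81 CPM in db/db, 2.78 CPM without replicate 9, and 1.14 CPM in db/m. Serpina3k, at few counts, averaged 0.676 CPM in db/db and 0.369 CPM in db/m over all libraries. Some other plasma protein genes were not higher. Over all libraries Serpina1c averaged 5.26 CPM in db/db and 6.45 CPM in db/m, and Fga 6.58 and 7.39 CPM. Ahsg, at few counts, averaged 0.383 CPM in db/db without replicate 9 and 0.434 CPM in db/m. The 16 hepatocyte genes listed, 6 of them tested, summed to 55.4 to 152 CPM in db/db and 66.1 to 109 CPM in db/m (exact permutation p = 0.772). That sum rests largely on Serpina1a, at a mean of 36.8 CPM in db/db and 41.7 CPM in db/m, and on Serpina1b, at 7.61 and 22.2 CPM and called lower. Tat was at 0 counts in all libraries.

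**Figure D1:**
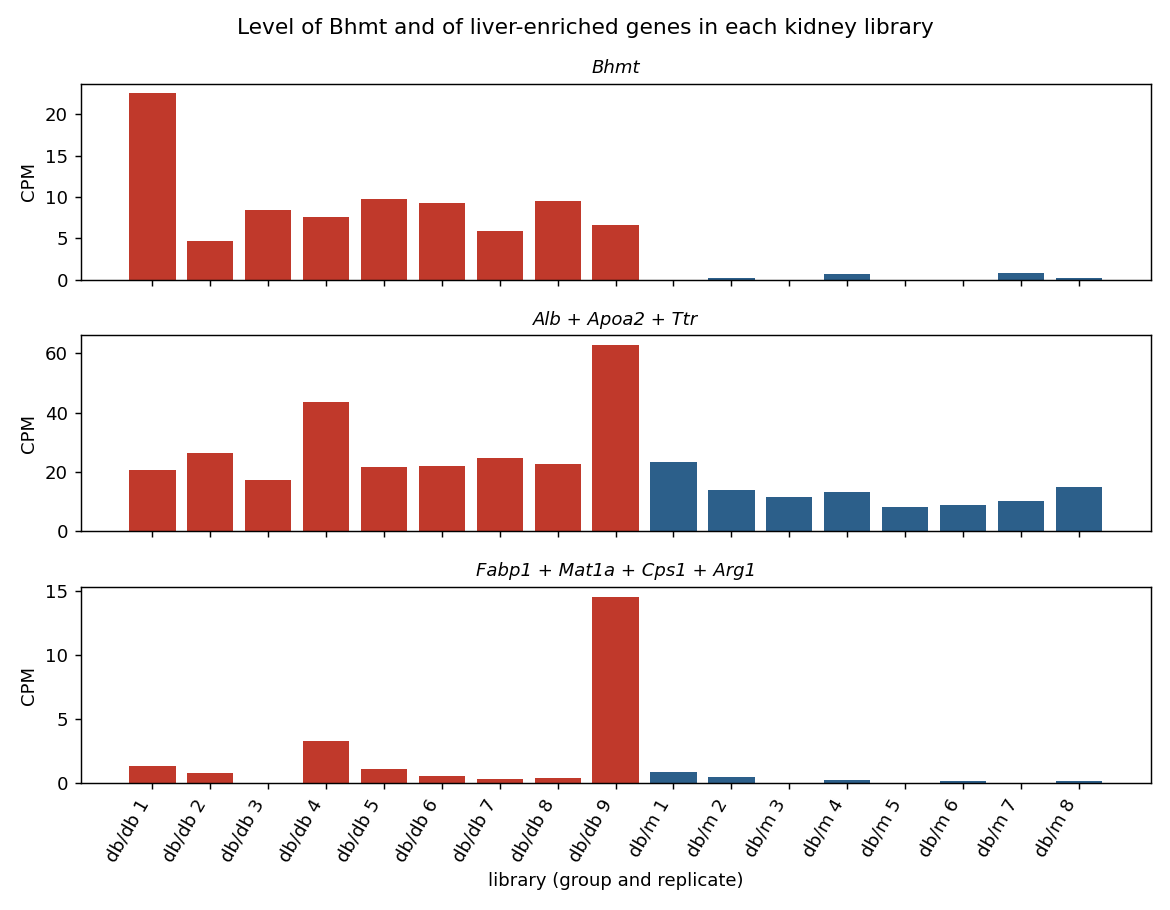
Level in CPM (y axis) in each of the 17 kidney libraries of Bhmt (top), of Alb, Apoa2 and Ttr summed (middle) and of Fabp1, Mat1a, Cps1 and Arg1 summed (bottom), with db/db in red on the left and db/m in blue on the right. The sum of Alb, Apoa2 and Ttr was 62.9 CPM in db/db replicate 9 and 17.3 to 43.5 CPM in the other db/db kidneys, against 8.10 to 23.5 CPM in db/m. The sum of the other liver genes was 14.6 CPM in db/db replicate 9 and at most 3.32 CPM elsewhere.

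A near copy of the 3′ end of Bhmt, the gene Gm5096, is 98.2% identical over 276 of the last 500 bases of a Bhmt transcript. It had 14 counts over the db/db kidneys and 0 over the db/m kidneys, so to that extent the counts of Bhmt are uncertain. Reads aligned to several places stand at 0 in the deposited table, and how many Bhmt reads this copy removed was not tested. Near copies of Mat2a (Gm9523, 9 counts in db/db and 37 in db/m) and of Ahcy (Gm4737, 13 and 4) took few reads beside 29785 and 3075 counts of the members themselves. Annotated genes on the opposite strand overlap Bhmt (Gm15622), Chdh (Cacna1d, Gm18760), Dmgdh (AW495222, Gm15620), Sardh (Sardhos), Mat2a (Particl) and Ahcy (Gm45609), and Gm43314 overlaps Cth on the same strand. Whether counting used the strand is not given in the sources used here, so reads of such pairs may not be told apart.

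Bhmt2, the neighbour and paralogue that transfers a methyl group from S-methylmethionine to homocysteine, had a lowest, median and highest level of 30.2, 48.3 and 57.4 CPM in db/db, and of 36.0, 39.5 and 54.8 CPM in db/m. The groups overlapped, with a log2 fold change of 0.12 (SE 0.13, 95% interval -0.15 to 0.39). The share of Bhmt in the counts of both paralogues was 17.3% in db/db and 0.505% in db/m. Repeats in the 3′ end of Bhmt2 match other transcripts, so its counts are uncertain to that extent.

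Choline dehydrogenase, Chdh, begins betaine synthesis in mitochondria. It was at 105 to 144 CPM in db/db (median 128) and 83.1 to 178 CPM in db/m (median 139), with a log2 fold change of -0.15 (SE 0.12, 95% interval -0.41 to 0.10). All db/db values lay inside the db/m range. The SD of log2 CPM was 0.15 in db/db and 0.34 in db/m.

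Dimethylglycine dehydrogenase, Dmgdh, and sarcosine dehydrogenase, Sardh, remove the remaining methyl groups of betaine in turn and hand them to folate. Dmgdh was at 59.4, 81.9 and 136 CPM (lowest, median, highest) in db/db and at 49.8, 61.0 and 77.5 CPM in db/m. Of the 9 db/db kidneys, 6 were above every db/m kidney. Sardh was at 216, 275 and 622 CPM in db/db and at 159, 203 and 258 CPM in db/m, and again 6 of 9 were above every db/m kidney. For both genes db/db replicates 7 and 8 were the highest, at 126 and 136 CPM of Dmgdh and 514 and 622 CPM of Sardh.

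The log2 fold change of Dmgdh was 0.54 (SE 0.15, 95% interval 0.23 to 0.85) and that of Sardh 0.67 (SE 0.20, 95% interval 0.27 to 1.08). Without the 4 libraries that had the most or fewest detected genes or lay at an end of the first component (db/m replicate 8 and db/db replicates 4, 7 and 8), they were 0.27 and 0.29, and neither gene was called. Without db/m replicate 8 and db/db replicate 8 alone they were 0.40 and 0.45, again with neither called. The adjusted p of Dmgdh was over 0.05 without any 1 of db/m replicates 2, 3, 4 and 8 and db/db replicates 5 and 7. That of Sardh was over 0.05 without any 1 of db/m replicates 1, 2, 3, 4, 6 and 8 and db/db replicates 5, 7, 8 and 9.

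**Figure D2:**
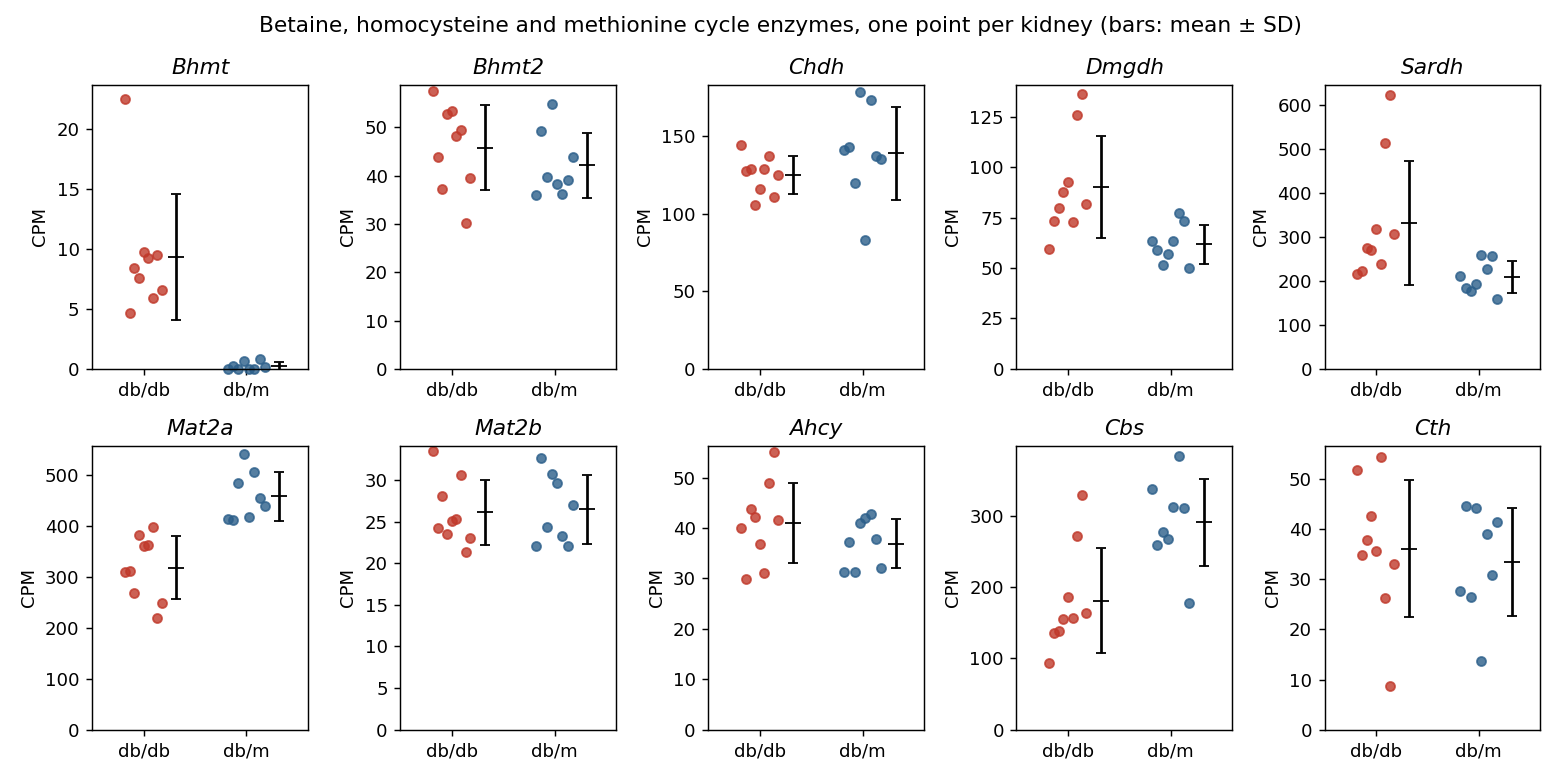
Level in CPM (y axis, from 0) of each of the 10 enzymes in each kidney, with db/db in red on the left, db/m in blue on the right, and the mean ± SD as a bar beside each group. Bhmt is near 0 in db/m, Mat2a is lower in every db/db kidney than in any db/m kidney, and the other 8 genes overlap between the groups.

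Mat2a encodes the catalytic subunit of the SAM synthetase of tissues other than liver, and its mRNA is known to be stabilised when SAM is scarce. It was at 220, 311 and 397 CPM (lowest, median, highest) in db/db and at 411, 446 and 541 CPM in db/m. Every db/db kidney was below every db/m kidney. The mean was 318 ± 62.3 CPM in db/db and 459 ± 48 CPM in db/m (SD, n = 9 and 8), with a log2 fold change of -0.53 (SE 0.12, 95% interval -0.77 to -0.29). It ranged from -0.57 to -0.48 when any 1 library was left out.

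Mat2b, the regulatory subunit of the same enzyme, was at 21.3 to 33.5 CPM in db/db and 22.0 to 32.6 CPM in db/m, a log2 fold change of -0.02 (SE 0.12, 95% interval -0.27 to 0.23). Adenosylhomocysteinase, Ahcy, splits the product of methyl transfer to homocysteine. It was at 29.8 to 55.1 CPM in db/db and 31.2 to 42.8 CPM in db/m, with a log2 fold change of 0.15 (SE 0.12, 95% interval -0.11 to 0.41). Both genes overlapped between the groups, and within the SAM cycle Mat2a alone among these 3 members was called.

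Cystathionine beta-synthase, Cbs, commits homocysteine to cysteine synthesis. It was at 92.9, 156 and 330 CPM (lowest, median, highest) in db/db and at 179, 294 and 384 CPM in db/m, and 6 of 9 db/db kidneys were below every db/m kidney. As for Dmgdh and Sardh, db/db replicates 7 and 8 were the highest of their group, at 272 and 330 CPM. Its log2 fold change of -0.69 had an SE of 0.20 (95% interval -1.10 to -0.27). Without db/m replicate 8 and db/db replicate 8 it was -0.93, and without the 4 libraries named above -1.08. The adjusted p of Cbs was over 0.05 without any 1 of db/m replicates 1 to 7 and db/db replicates 2, 3, 4, 5, 6 and 9. Log2 CPM of Cbs had r = 0.698 with the S3 marker sum over the db/db kidneys and r = 0.929 over the db/m kidneys. That sum was lower in db/db, with 5 of its 9 genes lower and 1 higher. Dmgdh and Sardh, both higher in db/db, had r of 0.636 and 0.495 with the same sum over the db/db kidneys. Over the db/m kidneys these were 0.819 and 0.677. The part of the S3 sum in the level of Cbs was not tested.

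Cystathionine gamma-lyase, Cth, makes cysteine from the product of Cbs. It was at 8.70, 35.7 and 54.3 CPM (lowest, median, highest) in db/db and at 13.7, 34.9 and 44.5 CPM in db/m, with a log2 fold change of 0.11 (SE 0.26, 95% interval -0.44 to 0.65). Over all 9 db/db kidneys it was the most variable member: the SD of log2 CPM was 0.77 in db/db and 0.56 in db/m. That rank takes in db/db replicate 8, at 8.70 CPM against 26.3 to 54.3 CPM in the other db/db kidneys. The SD without it was not calculated. The lowest values were in db/db replicate 8 and db/m replicate 5, the kidneys of each group at the upper end of the first component.

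In all, 3 of the 10 members were called higher in db/db (Bhmt, Dmgdh and Sardh) and 2 lower (Mat2a and Cbs) at a Benjamini-Hochberg adjusted p under 0.05 in edgeR's quasi-likelihood test, where 3.91% and 3.49% of the 12131 genes tested were called in those directions and 7.39% in either. All 10 passed the filter on low counts. The median log2 fold change was 0.11 over the members and 0.00 over all genes tested. Groups did not overlap for 2 members, Bhmt higher and Mat2a lower, against 1.78% of all genes tested (0.734% higher and 1.05% lower). As the members were chosen with this comparison known, nothing is read from these shares.

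**Figure D3:**
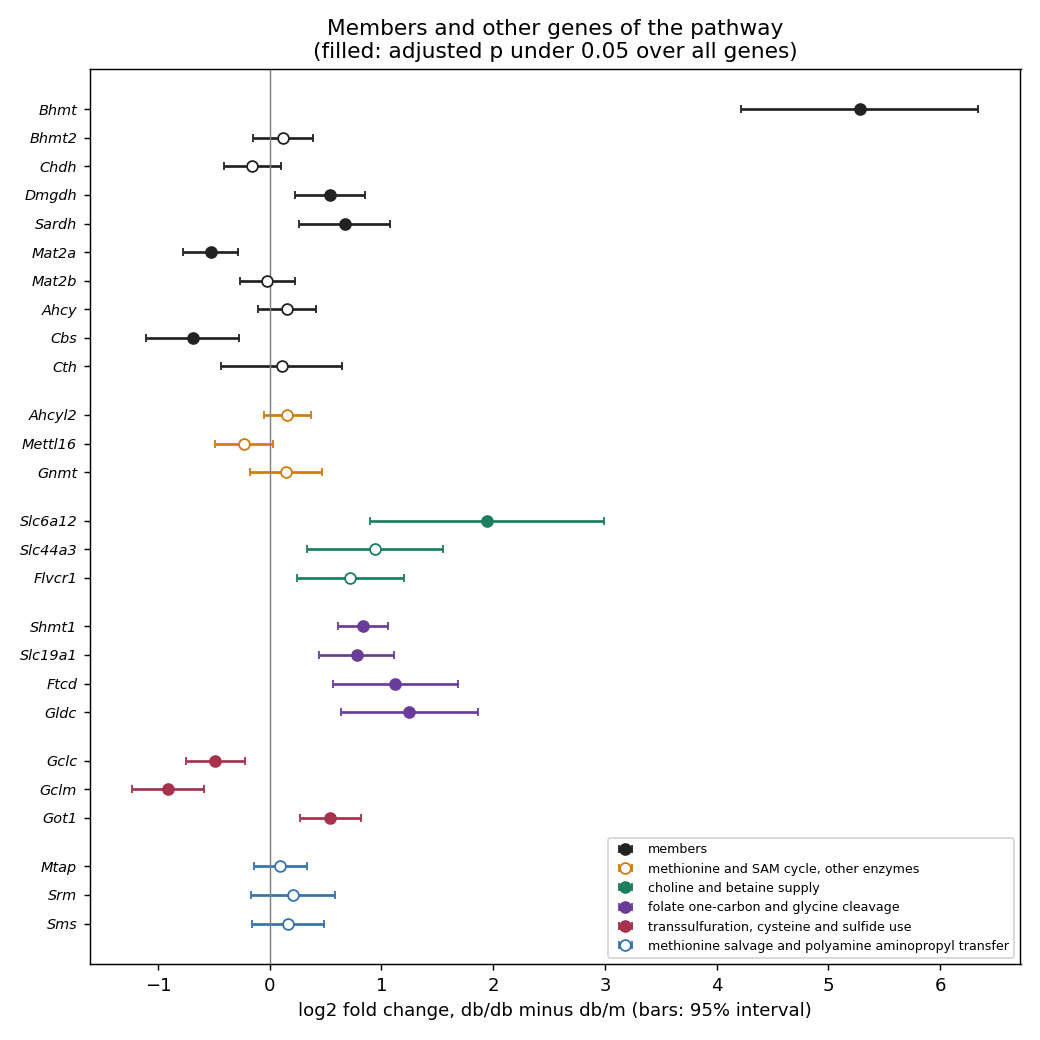
Log2 fold change of db/db over db/m (x axis) for the 10 members and for other genes of the pathway, with 95% intervals; filled points had an adjusted p under 0.05 over all genes. Bhmt stands at 5.28, the other called members lie between -0.69 and 0.67, and Slc6a12 is next at 1.94.

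How the enzymes varied from animal to animal within a group does not depend on the group difference, and 14 relations between members were tested by exact permutation, two-sided, with Benjamini-Hochberg adjustment over the 14. Dmgdh and Sardh rose and fell together among db/db kidneys: r = 0.965 (exact permutation p = 5.511e-05, adjusted p = 0.000772; rho = 0.933, p = 0.000750, n = 9). Without replicates 7 and 8, the farthest from the median, r was 0.855 (exact permutation p = 0.00833). Among db/m kidneys r was 0.834 (exact permutation p = 0.0118, adjusted p = 0.0552; rho = 0.881, p = 0.00724, n = 8), and without replicates 6 and 8 it was 0.852 (exact permutation p = 0.0167). The ratio of Sardh to Dmgdh stayed within 3.02 to 4.56 in db/db and 2.93 to 4.07 in db/m, and so overlapped between the groups. High r was not particular to this pair. Over the db/db kidneys Cbs had r = 0.975 with Dmgdh and 0.947 with Sardh, which were not among the 14 relations tested.

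Cbs and Cth, the consecutive steps of transsulfuration, ran in opposite directions among db/db kidneys: r = -0.828 (exact permutation p = 0.00304, adjusted p = 0.0213; rho = -0.667, p = 0.0589, n = 9). Without replicates 7 and 8 r was -0.486 (exact permutation p = 0.288), so the relation rests on those kidneys, and it missed adjustment also without replicate 1, 7 or 8 alone. Among db/m kidneys r was -0.341 (exact permutation p = 0.369, adjusted p = 0.498; n = 8). The 4 relations of Bhmt in db/db, with Bhmt2, Dmgdh, Chdh and Cbs, ranged from r = -0.399 to r = 0.303 (lowest exact permutation p = 0.286). Bhmt2 and Dmgdh, added to the family after their promoter windows were seen to overlap, had r = -0.478 in db/db (exact permutation p = 0.190) and r = -0.496 in db/m (exact permutation p = 0.207). Mat2a had no relation past the threshold with Mat2b or Ahcy in either group (lowest exact permutation p = 0.297).

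**Figure D4:**
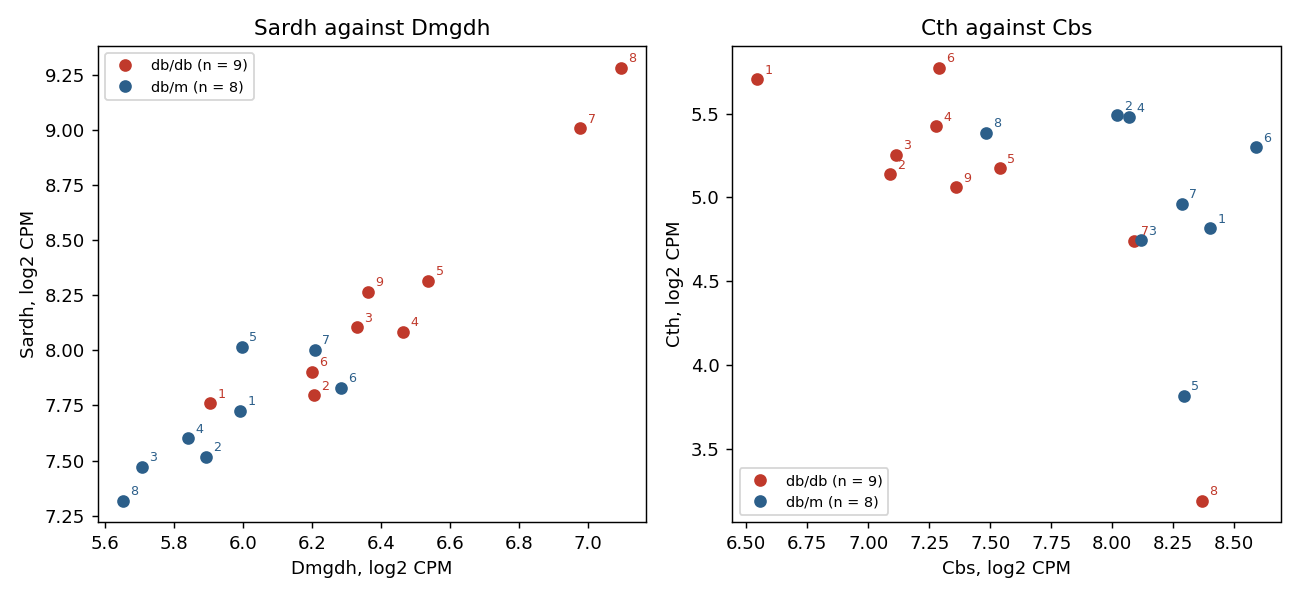
Log2 CPM of Sardh against Dmgdh (left) and of Cth against Cbs (right), 1 point per kidney with its replicate number, db/db in red (n = 9) and db/m in blue (n = 8). Dmgdh and Sardh rise together in both groups (r = 0.965 in db/db and 0.834 in db/m), while the falling relation of Cth with Cbs in db/db (r = -0.828) turns on replicates 7 and 8.

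The same axis ran through several members. The first principal component was taken over the genes that passed the filter on low counts. With it, log2 CPM of Dmgdh, Sardh and Cbs had r of 0.958, 0.946 and 0.953 over the db/db kidneys. Over the db/m kidneys these were 0.663, 0.877 and 0.709. Cth had r = -0.921 in db/db and -0.781 in db/m, and Bhmt2 -0.704 and -0.763. These are descriptions, since the component was built from the same libraries. Among the db/db kidneys replicate 8 lay at 79.2, replicate 7 at 43.1 and replicate 1 at -40.65, and the others from -11.6 to 14.8. The r values take in those kidneys and were not calculated without them. Within each group Cbs thus followed Dmgdh and Sardh, whereas between the groups it lay on the other side: the ratio of Cbs to Dmgdh was 1.56 to 2.42 in db/db and 3.58 to 5.36 in db/m. The ratio of Cbs to Sardh was 0.429 to 0.653 in db/db and 1.12 to 1.69 in db/m. Neither ratio overlapped between the groups. Both were picked after the values had been seen and were not tested.

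**Figure D5:**
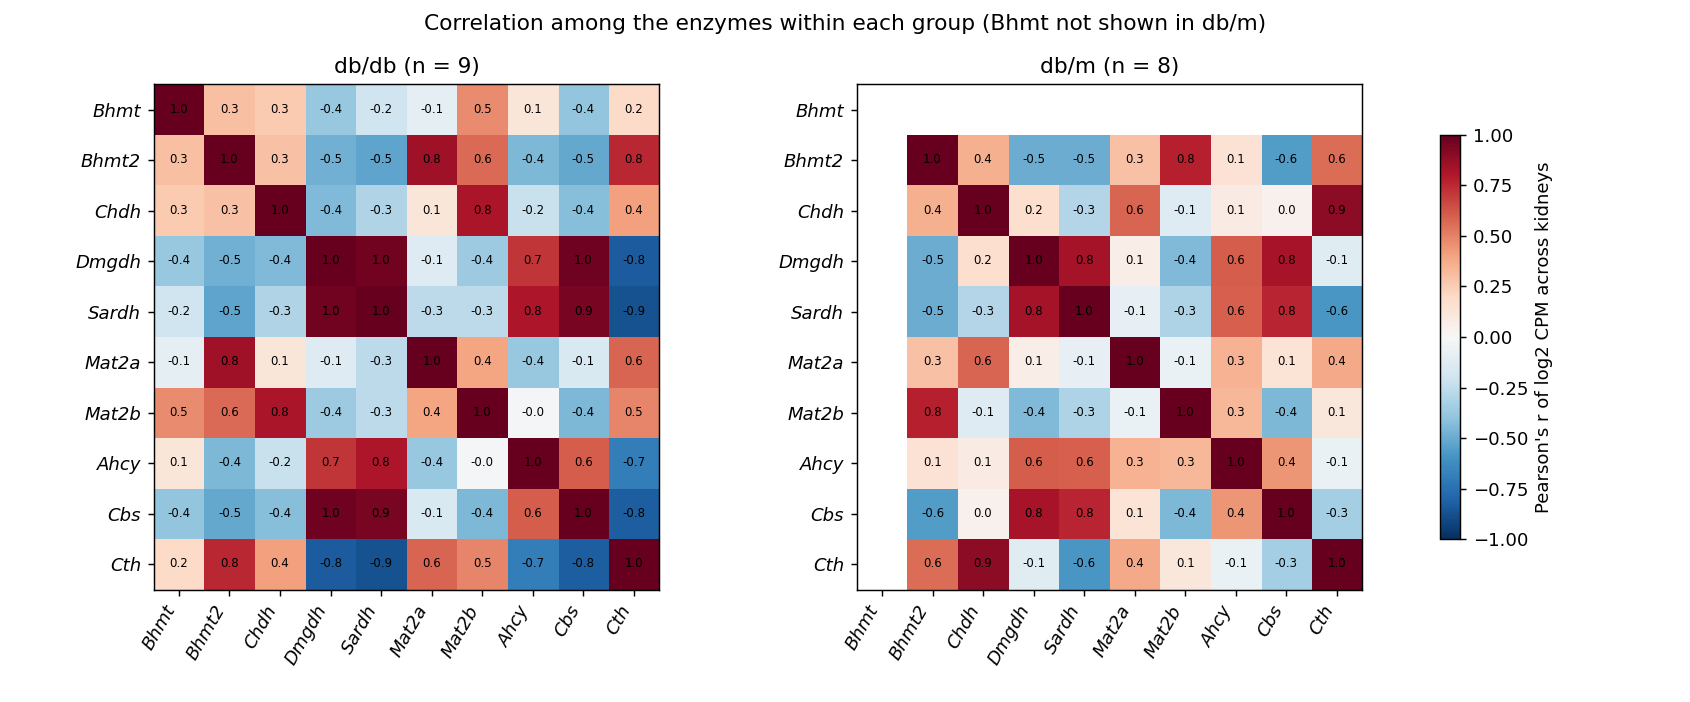
Pearson's r of log2 CPM between each pair of enzymes across kidneys, db/db on the left (n = 9) and db/m on the right (n = 8); colours run from blue (-1) to red (1), and Bhmt is left out in db/m, where it rests on single counts. Dmgdh, Sardh and Cbs form a red block in both groups, and Cth is blue against them in db/db.

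Other genes of the pathway, 70 in 5 lists, were tested in the same fit. Of 66 that passed the filter, 6 were called higher and 2 lower in db/db, or 12.1% against 7.39% of all genes, and their median log2 fold change was 0.08. In the same test 19 of the 66 had an unadjusted p under 0.05, and 2557 of all 12131 genes did. These were 8 of 15 in choline and betaine supply, 5 of 24 in folate metabolism and glycine cleavage, and 6 of 11 in transsulfuration. The other lists, of 9 and 7 tested genes, had 0, and as they are short nothing is read from their 0 calls. All 5 lists were chosen with earlier results of these data known, so nothing is read from their counts of calls. All adjusted p-values that follow are Benjamini-Hochberg values from edgeR's quasi-likelihood test over all genes.

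In choline and betaine supply, 1 of 15 genes was called, higher in db/db, where 3.91% of all genes tested were called higher. Slc6a12, the betaine transporter BGT1 that loads medullary cells with betaine as an osmolyte, was at 4.24, 9.92 and 16.1 CPM (lowest, median, highest) in db/db and at 0, 1.79 and 9.58 CPM in db/m. It rose by a log2 fold change of 1.94 (SE 0.50, adjusted p = 0.0196). The highest db/m value, in replicate 8, lay inside the db/db range, and with that kidney the db/m mean was 2.61 CPM, without it 1.62 CPM. The log2 fold change was 2.64 without it and 2.71 without db/db replicate 8 as well. The call ended when replicate number was added to the edgeR fit (adjusted p = 0.0944). The distal tubule and collecting duct marker sum was also higher in db/db (1538 to 2354 CPM against 909 to 1314 CPM in db/m). Its part in the Slc6a12 values was not tested. The choline transporter family member Slc44a3 (log2 fold change 0.94, SE 0.29, adjusted p = 0.0538) and the choline transporter Flvcr1 (0.72, SE 0.23, adjusted p = 0.0599) missed the threshold here. DESeq2 called both, and 5 of the 15 in all, where it called 5.12% of all genes higher, 4.40% lower and 9.52% in either direction.

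In folate one-carbon metabolism and glycine cleavage, 4 of 24 genes were called, all higher in db/db. Of all genes tested, 3.91% were called higher. Cytosolic serine hydroxymethyltransferase Shmt1, which moves the one-carbon unit of serine to folate, was at 47.0, 55.7 and 70.9 CPM in db/db and at 27.3, 30.7 and 41.1 CPM in db/m. The groups did not overlap, and it rose by a log2 fold change of 0.84 (SE 0.11, adjusted p = 2.19e-05). The reduced folate carrier Slc19a1 rose by 0.78 (SE 0.16, adjusted p = 0.00378; 104 ± 31.9 CPM in db/db and 60.8 ± 9.87 CPM in db/m, SD), and by 0.40 without the 4 libraries named above.

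Gldc, the decarboxylase of the glycine cleavage system, was at 14.5, 20.5 and 75.5 CPM in db/db and at 5.75, 10.8 and 15.5 CPM in db/m, and rose by 1.25 (SE 0.30, adjusted p = 0.0103). The highest value was in db/db replicate 1, the kidney with the most Bhmt, and without it the db/db mean was 20.3 ± 3.69 CPM (SD, n = 8). Ftcd, which breaks down the histidine product formiminoglutamate onto folate, was named after its values were seen, as the other called gene. It rose by 1.12 (SE 0.27, adjusted p = 0.0111), with 336 CPM in db/db replicate 8 and 71.5 to 153 CPM in the other db/db kidneys, against 42.3 to 101 CPM in db/m.

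Among 11 genes of transsulfuration, cysteine and sulfide use, 2 were called lower and 1 higher, against 3.49% and 3.91% of all genes tested. The modifier subunit of glutamate-cysteine ligase, Gclm, which together with Gclc makes the first intermediate of glutathione, was at 51.9, 87.6 and 145 CPM in db/db and at 123, 177 and 217 CPM in db/m. It fell by 0.91 on the log2 scale (SE 0.15, adjusted p = 0.000482). The catalytic subunit Gclc fell by 0.48 (SE 0.13, adjusted p = 0.0202; 80.7 ± 12 CPM in db/db and 113 ± 25.1 CPM in db/m, SD), a call that ended without db/m replicate 3 or 4. The aspartate aminotransferase Got1 rose by 0.54 (SE 0.13, adjusted p = 0.0131; 101 ± 21.3 CPM in db/db and 69.2 ± 10.4 CPM in db/m, SD).

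The other enzymes of the methionine and SAM cycle gave 0 calls among 9 tested by edgeR and 0 by DESeq2, with 0 at an unadjusted p under 0.05. Methionine synthase Mtr, which remakes methionine with folate in place of betaine, was at 25.3 ± 5.43 CPM in db/db and 24.6 ± 3.11 CPM in db/m (SD; log2 fold change 0.04, SE 0.14, 95% interval -0.24 to 0.32) and was named after its values were seen. Glycine N-methyltransferase Gnmt had 0.15 (SE 0.16, adjusted p = 0.639), the adenosylhomocysteinase-like gene Ahcyl2 0.16 (SE 0.10, adjusted p = 0.385) and Mettl16, the RNA methyltransferase that acts on Mat2a mRNA, -0.23 (SE 0.12, adjusted p = 0.306). Without db/m replicate 8 and db/db replicate 8, Mettl16 was at -0.35 and called (adjusted p = 0.0408). Mat1a and Pemt were too low to test, and of the 66 counts of Mat1a in db/db, 58 were from replicate 9. Methionine salvage likewise gave 0 calls among 7 tested by either tool and 0 at an unadjusted p under 0.05, with Srm at 0.21 (SE 0.18), Sms at 0.16 (SE 0.15) and Mtap at 0.10 (SE 0.12).

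The genes whose levels followed Bhmt most closely across the 9 db/db kidneys, out of 10202 ranked, were Psph, the last enzyme of serine synthesis (r = 0.968), the phosphate transporter Slc20a2 (0.939), the endocytic adaptor Dab2 (0.937), the calcium pump Atp2c1 (0.930) and Hacd2 (0.921). Without db/db replicate 1, in which Bhmt was highest, these were 0.891, 0.792, 0.774, 0.765 and 0.701. Among so many genes over 9 kidneys, high r can arise by chance. The 5 were picked for their high r, so both sets of values are a description and were not tested. Unlike Bhmt, none of the 5 was called between the groups: Psph was at 3.64 ± 1.34 CPM in db/db and 3.63 ± 1.08 CPM in db/m (SD).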

How the data were processed

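Polyadenylated RNA of 17 mouse kidneys was made into QuantSeq 3′ forward libraries, per the labels' protocols. That protocol speaks of cells in plates, while the tissue label is kidney. Raw counts per mouse Ensembl gene make up the deposited table. The submitters' processing notes name STAR 2.7.3a, HTSeq 2.16.2 and the build GRCh38. Not given in the sources used here are a mouse build, the annotation release, the strand setting and any use of molecular identifiers. Reads outside genes (19.3%) and ambiguous reads (0.533%) were left out of library sizes. Both shares differed by group. Ambiguous reads were 0.516% to 0.609% in db/db and 0.475% to 0.540% in db/m (exact permutation p = 0.000535). Reads outside genes were 15.3% to 22.1% in db/db and 19.7% to 20.8% in db/m (exact permutation p = 0.0378). Symbols matched 55141 of 55487 identifiers. No 2 libraries were copies (lowest chi-square per degree of freedom 3.83). A further allele in the strain names is not reported here. Labels name separate animals by group only, so p-values measure the spread between these samples.

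Counts were tested with edgeR 4.0.16 in R 4.3.3 (quasi-likelihood, TMM, filterByExpr with a minimum count of 10, no covariate), checked on simulated counts. Benjamini-Hochberg adjustment ran over 12131 genes, with a threshold of 0.05. The SE is the fold change over the square root of F. Intervals are at 95%. The limit of 3 counts covers counting error only. Log2 CPM used a prior count of 2. DESeq2 1.42.0, other scaling, filters, a replicate block and left-out libraries were alternatives. Last 500 bases of member transcripts (GENCODE M21) were compared with BLAST 2.17.0, keeping matches of at least 90% over at least 250 bases. The genes named are the 10 members, the 3 tested genes of each pathway list with the smallest p, and the 5 most like Bhmt whose average log2 CPM reached 2; Ftcd and Mtr were added. The members and lists were chosen with earlier results of these data known.

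Besides the hepatocyte, proximal tubule and distal lists given with the results, 4 further marker lists were summed (CPM, exact permutation test). The thick ascending limb ran from 1226 to 2964 in db/db and 1809 to 3685 in db/m (exact permutation p = 0.637), and endothelium, stroma and leukocytes from 297 to 446 and 361 to 509.9 (exact permutation p = 0.0106). Adipocyte genes ran from 0.619 to 121 in db/db and 0.231 to 177 in db/m (exact permutation p = 0.733), and adrenal cortex genes from 1.10 to 3.59 and 0.749 to 3.71 (exact permutation p = 0.727).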

Additional observations from a re-analysis of the deposited data

Results flagged for a closer look

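Each value here lay far from the rest of its group by Dixon's test at the 95% level, which flags about 1 in 20 groups by chance. It was applied to CPM of 52 groups (26 genes, 2 groups each) and marked 6 values. Bhmt in db/db replicate 1 was at 22.6 CPM, with the next highest at 9.79 CPM. Gldc in the same kidney was at 75.5 CPM, with the next at 26.6 CPM. In db/db replicate 8, Ftcd was at 336 CPM (next 153 CPM), Gclc at 107 CPM (next 84.0 CPM) and Mettl16 at 54.3 CPM (next 38.5 CPM). Slc6a12 in db/m replicate 8 was at 9.58 CPM, with the next at 3.71 CPM.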

How the results depend on the processing

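Of the genes named and called, none changed direction under an alternative. With 1 library left out at a time, 319 to 666 genes were called higher and 318 to 571 lower in db/db, against 474 and 423 with all libraries. Members called higher ranged from 1 to 3 and lower from 1 to 2, and pathway genes from 6 to 10 and from 1 to 3. The 10 came without db/db replicate 1, and the 1 without db/m replicate 3 or 4. The labels give no pairing by replicate number. Deviations of same-numbered libraries correlated between -0.454 and 0.212. This cannot exclude a pairing, as differently numbered libraries were not compared. With the replicate block, 200 genes were called higher and 235 lower, 1 member higher (Bhmt), 1 lower (Mat2a) and 1 pathway gene lower (Gclm). The calls of Dmgdh, Sardh, Cbs, Slc6a12, Gclc and Got1 ended there. Without db/m replicate 8 and db/db replicate 8, 1 member was called higher and 5 pathway genes lower, and without the 4 libraries named in the report, a set chosen after seeing the data, 1 member was called higher. DESeq2 called 11 pathway genes higher, and 621 of all genes higher and 534 lower. Of 14 relations 2 passed adjustment, and 1 to 3 did when 1 library was left out (1 without db/db replicate 1, 7 or 8). The causes were not tested. The depth limits Bhmt in db/m, where 8 counts stand for the group.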
